A study of Mus musculus with 83 samples.

Results

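Brown preadipocytes, which can mature into the fat cells that burn fuel for heat, were compared between proliferating culture at day -3 and confluent culture at day 0, with 1 RNA library on each side. These are 2 of the 83 samples of a mouse series on brown adipogenesis, whose other libraries are not compared here apart from the day 2 and day 7 RNA values given for context. The compared genes were those whose larger value in the 2 libraries was at least 1 FPKM (fragment counts scaled by transcript length and library size), which held for 10602 of the 11144 genes listed. With 1 library a side no difference has a replicate check, so no p-value is given, and the differences describe these 2 libraries. The cells came from interscapular brown fat of newborn mice on a C57BL/6J background with the genotype Pparg-flox/flox (loxP-flanked Pparg alleles), and the labels name no Cre for these libraries. They had been immortalized by a retrovirus made from the plasmid pBabepuro-large T, which carries the SV40 large T antigen, a protein that binds p53 and the retinoblastoma family; both libraries share this. The cells were plated 4 days before induction in DMEM with 10% FBS, so that the day -3 culture was 1 day from plating. Confluent cells were induced on day 0 with insulin, T3, IBMX, dexamethasone and indomethacin, and whether the day 0 RNA was taken before the inducers were added was not given in the sources used here. Day 2 was labelled immature adipocytes and day 7 mature adipocytes. Poly(A) RNA was purified from total RNA.

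Adherent mesenchymal cells that have room to spread build actin stress fibres and focal adhesions. Tension in these fibres holds the transcription cofactors MRTF and YAP in the nucleus, where MRTF works with SRF on contractile and actin genes and YAP with TEAD factors on growth-related genes. At confluence normal cells slow their cycle and lay down matrix, and cultured preadipocytes are usually brought to confluence before adipogenic induction. Interferon signalling runs from cell surface receptors through JAK kinases to transcription factors that bind the interferon-stimulated response element (ISRE) in promoters.

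Past the 2-fold mark there were 1201 genes (11.3% of those compared) with the higher level at day 0 and 576 (5.43%) with the lower, and 8825 lay within it. At least 4-fold higher were 180 genes (1.70%) and at least 4-fold lower 88 (0.830%). A difference here is day 0 minus day -3 of log2(FPKM + 1), and 2-fold means at least 1 on that scale, which understates the differences of genes with low values. The median difference of all compared genes was 0.06. Where 2 levels of a gene are given, the day -3 level stands before the day 0 level. The genes just inside the level threshold had larger values of 1.001 FPKM (2010300C02Rik) and 1.003 (Gcnt1), and Dennd2d at 0.9996 FPKM lay just outside. Pdzd7 at 1.0011 and Ret at -1.0001 lay just inside the 2-fold rule, and Gsto2 at 0.998 and Cfl1 at -0.999 just outside. Higher genes were mostly of low level: in the quartile of genes with the lowest mean level 18.6% were higher and 4.41% lower, and in the quartile with the highest mean level 6.71% were higher and 7.36% lower. The lower genes made up 17.3% of all summed FPKM on day -3 and 6.37% at day 0, and the higher genes 2.79% and 10.3%. The summed FPKM of all listed genes was 368527 at day -3 and 318872 at day 0, and the read depth of the libraries is unknown. Rescaling both libraries to 1 common total moved the median of all genes to 0.25 and the counts to 1611 higher and 380 lower, so that 80.9% of the genes past 2-fold were higher in place of 67.6%. Differences of single genes are best read against that shift.

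**Figure D1:**
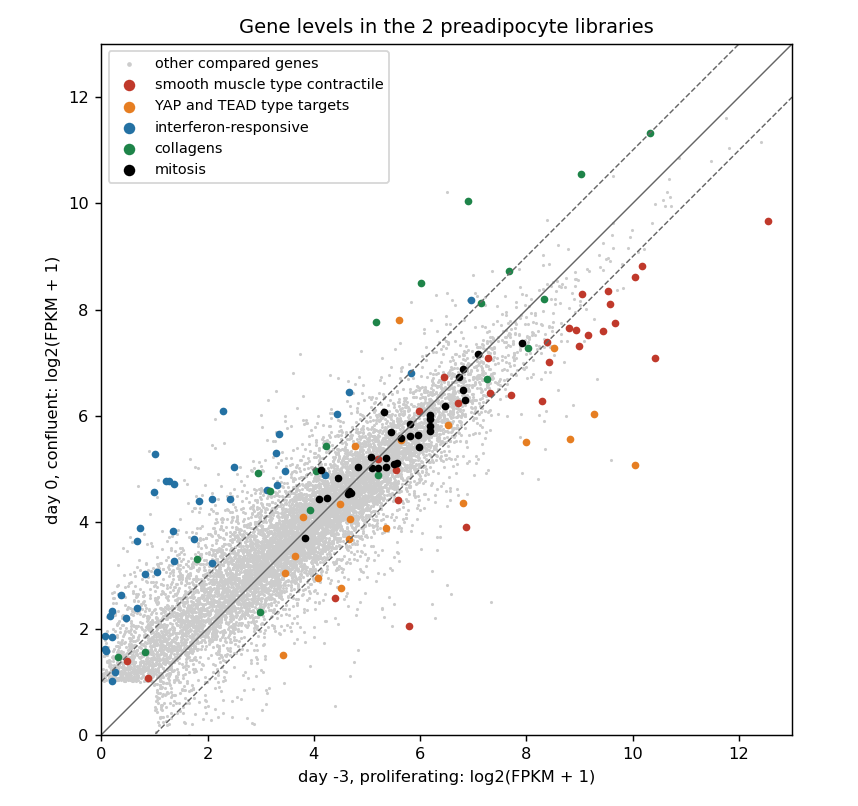
Each point is 1 compared gene, with its log2(FPKM + 1) at day -3 on the horizontal axis and at day 0 on the vertical axis; the solid line marks equal levels and the dashed lines 2-fold. Below the lower dashed line lie 20 of 30 contractile genes (red) and 10 of 20 YAP and TEAD type targets (orange), above the upper one 35 of 39 interferon-responsive genes (blue), and all 34 mitosis genes (black) lie between the dashed lines.

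Genes of mitosis were checked against the labels proliferating and confluent. Of 34 compared mitosis genes 0 were at least 2-fold higher and 0 lower, with a median difference of -0.14 that was 0.06 when the libraries were rescaled to a common total, with 1 higher. Cdk1, the kinase that drives entry into mitosis, was at 242 FPKM on day -3 and 164 on day 0. Ccnb1, its cyclin partner, was at 24.2 and 23.1 FPKM. The confluent library thus held mitotic transcripts at about the level of the proliferating one. Of 36 DNA replication genes 1 was lower: Rrm2, the small subunit of ribonucleotide reductase, was at 144 and 38.7 FPKM. The helicase subunit Mcm2 was at 96.6 and 84.7 FPKM, within 2-fold like all the remaining members.

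Of 19 G1 cyclins and E2F factors, which act at the step before DNA replication, 2 were lower and 1 higher, a share near the 16.8% of all compared genes past 2-fold either way. Ccnd1, the cyclin D1 gene that growth factors switch on in G1, was at 69.7 FPKM on day -3 and 20.6 on day 0, and Ccnd2 at 98.9 and 47.8. Rbl2, a member of the retinoblastoma family, was the 1 higher gene at 6.74 and 14.6 FPKM. Rescaling by the median ratio left 0 higher, and rescaling to a common total gave 2 higher and 1 lower. E2f1 was level at 39.6 and 40.3 FPKM. Of 21 compared cell cycle inhibitors and quiescence genes 9 were higher and 3 lower, with a median of 0.55. Cdkn1b, which encodes p27, was at 18.5 and 39.8 FPKM, and Ccng2, an unusual cyclin found in resting cells, at 3.87 and 15.7. Cdkn2a, the gene of p16 and p19ARF, was already high at 118 FPKM on day -3 and was at 289 at day 0. Not all of the list went this way: Cdkn1a, the p21 gene, was at 40.5 and 21.7 FPKM, and Gadd45g at 82.5 and 24.8. Among 18 p53 target genes, 3 were higher and 2 lower with a median of -0.52; Aen, an exonuclease of apoptosis, was at 27.2 and 4.19 FPKM and Trp53inp1 at 1.71 and 7.76.

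Most ribosome biogenesis genes with values, and a smaller share of nucleotide synthesis genes, were lower at day 0. The list of 42 ribosome biogenesis genes has 11 members with values, and 9 of these 11 were at least 2-fold lower, with a median of -1.63. Fbl, the methyltransferase of ribosomal RNA, was at 17.03 FPKM on day -3 and 4.82 on day 0. Utp20, a processome subunit, was at 33.95 and 8.84 FPKM, and Bysl, a factor of the small ribosomal subunit, at 28.2 and 7.64. The exceptions Polr1c, a subunit of RNA polymerases I and III, and Ubtf, the polymerase I factor, were at 60.6 and 43.8 and at 59.7 and 51.1 FPKM. Of 21 compared nucleotide synthesis genes 8 were lower and 0 higher, with a median of -0.90 (4 lower when rescaled to a common total and 5 with a pseudocount of 5). Ctps, which makes CTP, was at 93.9 and 23.03 FPKM. Atic, of the last steps of purine synthesis, was at 116 and 33.6 FPKM, whereas Paics, of the middle steps, was at 123 and 116.

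Most translation genes were within 2-fold, as were 8825 of all 10602 compared genes, and their lists had negative medians. Of 25 initiation and elongation factor genes 6 were lower and 0 higher, with a median of -0.65, and this count was 2 when the libraries were rescaled to a common total. Eif5a, an elongation factor that carries hypusine, was the most different at 542 and 168 FPKM, and Eef1a1 was at 1870.02 and 1845. Of 18 cytosolic aminoacyl-tRNA synthetase genes 1 was lower and 0 higher. The 72 cytosolic ribosomal protein genes had a median of -0.55, with 7 lower and 2 higher; their values are uncertain because near-identical pseudogene copies can take their reads. Of 12 compared cytosolic chaperone genes 4 were lower, namely Hsp90aa1 (433 and 168 FPKM) and 3 subunits of the chaperonin that folds actin and tubulin, led by Cct3 at 327 and 112. The 26 proteasome genes had a median of -0.65 with 2 lower, and 0 when rescaled to a common total. Myc itself was not analysed here; of its partners and antagonists Mxd4, a repressor that competes with MYC for MAX, was at 8.67 and 38.03 FPKM. Genes of the ATF4 and serine pathway, an amino acid stress response, split: 9 of 23 were higher and 0 lower, among them Trib3 (10.3 and 54.01 FPKM) and Pck2 (37.98 and 135), but Psat1 of serine synthesis was at 216 and 140.4.

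**Figure D2:**
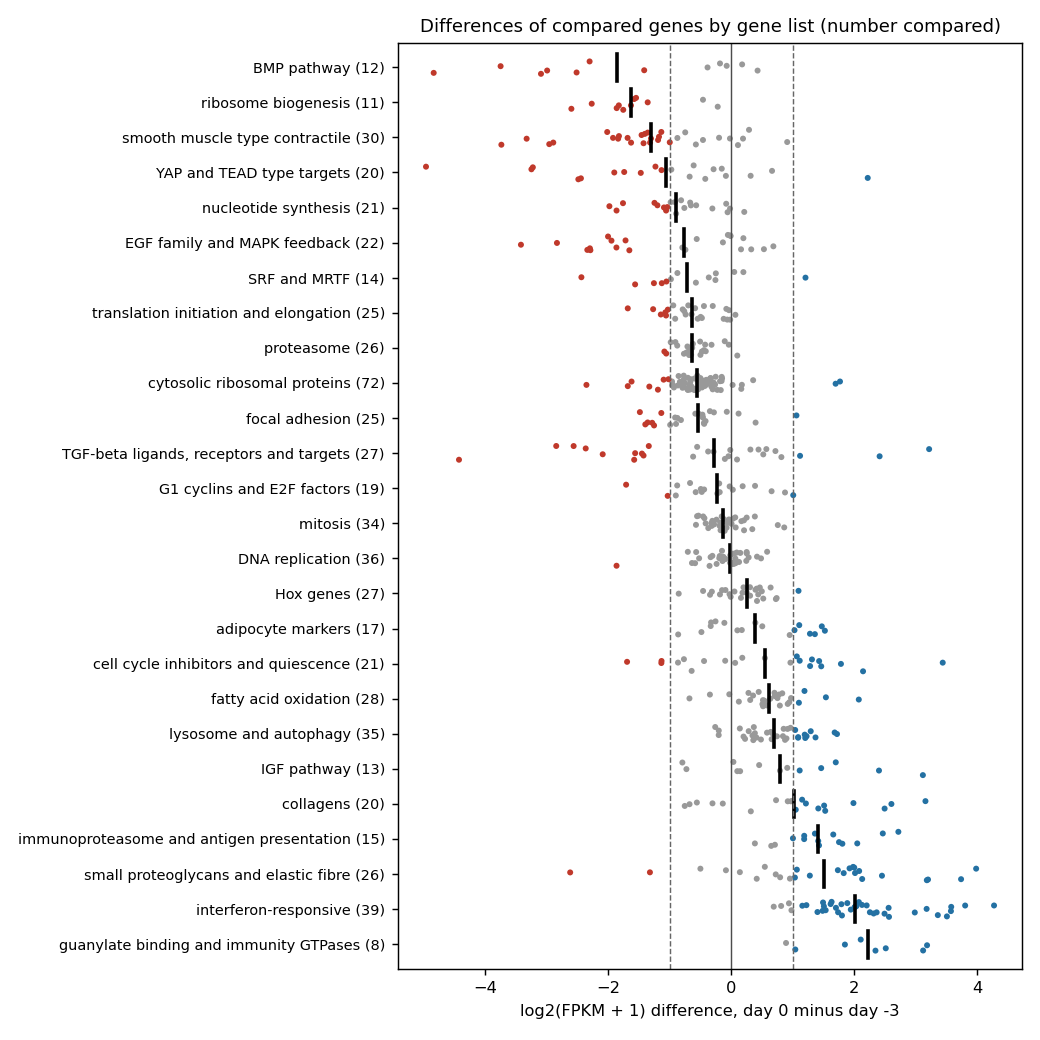
Each point is the log2(FPKM + 1) difference of 1 compared gene, day 0 minus day -3, by gene list; black bars are list medians, the dashed lines mark 2-fold, red points are at least 2-fold lower and blue points at least 2-fold higher. The medians run from -1.86 for the BMP pathway list to 2.22 for the guanylate binding and immunity GTPases, beside 0.06 for all compared genes.

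Contractile and actin cytoskeleton genes took up 4.68% of all summed FPKM on day -3 and 1.53% at day 0. Of 30 compared members 20 were lower and 0 higher, with a median of -1.31. When rescaled to a common total 16 were lower and 1 higher, with a median of -1.11. Acta2, smooth muscle actin, stood highest of all genes at day -3 with 6017 FPKM, and was at 808 at day 0. Tpm2, a tropomyosin that winds around actin filaments, was at 697 and 194 FPKM. Tagln2 was at 817 and 215 FPKM. Lmod1, which nucleates actin in smooth muscle, was at 20.2 and 4.97 FPKM. The largest differences on the list were those of the smooth muscle genes Actg2 (-3.74), Tagln (-3.33), Cnn1 (-2.96) and Acta2 (-2.89). Members found in most cell types were lower by less, with nonmuscle myosin Myh9 at 743 and 325 FPKM (-1.19), and Myl9, a regulatory light chain of myosin, was at 341 and 128 (-1.41). Other members were within 2-fold, and Mylk, the myosin light chain kinase, had the larger value at day 0 (0.91). Myh10, the other nonmuscle myosin heavy chain, was at 86.3 and 106 FPKM, and Cnn3 at 155 and 135. Actb, cytoplasmic actin, was at 5426 and 2268 FPKM, the largest difference downwards in FPKM units after that of Acta2.

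Of 14 compared SRF and MRTF genes, which include targets such as Actb, 5 were lower and 1 higher, and 3 were lower when rescaled to a common total. Srf, the factor that binds CArG boxes, was at 61.9 FPKM on day -3 and 20.3 on day 0, and Mkl1, which encodes MRTF-A, just under 2-fold at 76.2 and 38.1. Fhl1, a LIM domain protein of muscle, was at 322 and 58.5 FPKM. The early growth response gene Egr1, which SRF also regulates through a different set of partners, went the other way at 36.6 and 85.8 FPKM. The CArG box (CC, then 6 bases that are A or T, then GG, searched on both strands) was found in 4 of 31 promoters (12.9%) of compared contractile genes, beside 1.63% of all 32851 promoters in the RefSeq table of GRCm38.p6. Windows of 80 bases from 2 of these promoters, given 5′ to 3′ on the gene's strand with the match in capitals, show the element of 2 genes that were lower at day 0. Myl9 is on chromosome 2 (chr2:156775268-156775347, + strand, match 151 bases before the transcript start) and Cnn2, a calponin, on chromosome 10 (chr10:79988509-79988588, + strand, 46 bases before).
Myl9: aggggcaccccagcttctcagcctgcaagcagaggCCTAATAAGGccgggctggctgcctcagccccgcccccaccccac
Cnn2: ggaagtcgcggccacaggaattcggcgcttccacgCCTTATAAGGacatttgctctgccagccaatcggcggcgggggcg
Cnn2 was at 490.3 and 196 FPKM. The other 2 promoters with a match belong to Myl6 and Vcl, both within 2-fold at differences of -0.02 and -0.88. The windows of Acta2, Cnn1 and Lmod1, all lower, hold no match. A match is a description of the letters and not a bound site.

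Adhesion genes followed in part. Of 25 focal adhesion genes 6 were lower and 1 higher, with Bcar1, the p130Cas scaffold, at 95.2 and 35.5 FPKM and Tns3, a tensin, at 74.01 and 25.8. Nedd9, a relative of Bcar1, was higher at 6.97 and 15.6 FPKM. Among 13 integrins Itga5, a chain of the fibronectin receptor, was at 309.8 and 102 FPKM and Itga6, of the laminin receptor, at 37.96 and 10.2. Itga8 was higher at 0.929 and 3.45 FPKM. Among cell junction genes, Gjb2, a connexin, was at 6.11 and 0.167 FPKM, and Jup, plakoglobin, at 18.1 and 45.96. The cadherins Cdh2 and Cdh11 went opposite ways within 2-fold, at 45.4 and 24.8 FPKM and at 16.7 and 31.9.

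Of 20 compared targets of YAP and TEAD 10 were lower at day 0 and 1 higher, with a median of -1.06, and genes of the pathway itself went both ways. When rescaled to a common total 9 targets were lower and 1 higher, with a median of -0.86. Cyr61, a matricellular protein, was at 616 FPKM on day -3 and 64.9 on day 0. Ankrd1, an ankyrin repeat cofactor, was at 452 and 46.6 FPKM, and Amotl2, an angiomotin that restrains YAP, at 255 and 44.6. Crim1 was at 110.5 and 19.5 FPKM. The exception was F3, tissue factor, a receptor that starts coagulation, at 47.3 and 224 FPKM. Yap1 itself was at 70.9 and 49.3 FPKM, Wwtr1, which encodes TAZ, at 33.9 and 37.6, and Tead1 at 19.2 and 14.6. Tead4 was lower at 4.06 and 1.27 FPKM, and the atypical cadherins of the pathway were higher, with Dchs1 at 0.716 and 4.65 and Fat4 at 0.508 and 2.19. Of the 18 Hippo pathway and TEAD genes 3 were higher, 2 lower and 13 within 2-fold, beside 11.3% higher and 5.43% lower of all compared genes.

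The TEAD motif GGAATG, on either strand, was present in 8 of 18 promoters (44.4%) of the compared targets and in 13 of 31 (41.9%) of contractile genes. These shares stand beside 14.7% of all promoters in the table and 11.9% of those of all compared genes. Promoters of genes higher at day 0 held it in 13.2% and those of genes lower in 14.3%. The windows of 3 targets that were among the most different are shown with the match in capitals. Ankrd1 lies on chromosome 19 (chr19:36119925-36120004, - strand, match 117 bases before the start), Cyr61 on chromosome 3 (chr3:145650046-145650125, - strand, 97 bases before) and Amotl2 on chromosome 9 (chr9:102717702-102717781, + strand, 59 bases before).
Ankrd1: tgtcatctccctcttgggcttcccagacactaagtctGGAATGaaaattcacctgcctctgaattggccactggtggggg
Cyr61: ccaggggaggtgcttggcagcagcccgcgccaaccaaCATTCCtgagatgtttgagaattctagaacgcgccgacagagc
Amotl2: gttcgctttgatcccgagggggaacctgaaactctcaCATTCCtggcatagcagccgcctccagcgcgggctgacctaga
CATTCC is GGAATG read from the other strand. Lats2 and Ptpn14, within 2-fold, also hold a match, and the lower targets Foxf2, Wwc1 and Gadd45b hold none in their windows.

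The TGF-beta list went both ways. The ligand genes were within 2-fold, Tgfb1 at 26.3 and 36.1 FPKM and Tgfb2 at 11.6 and 9.31. The receptor gene Tgfbr2 was higher at 8.71 and 50.6 FPKM, as was the coreceptor Tgfbr3 at 7.48 and 17.4. The 10 lower members included response and feedback genes. Smad7, the inhibitory SMAD, was at 28.2 and 4.65 FPKM. Inhba, a subunit of activin, was at 78.96 and 10.1 FPKM, and Fst, which binds activin, at 7.19 and 0.385. Tgfbi, a matrix protein named for its induction by TGF-beta, stood against them at 11.1 and 112 FPKM. Beside these 10 there were 3 higher members of 27, and the median was -0.29.

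Of 12 compared BMP pathway genes 7 were lower and 0 higher, with a median of -1.86; 24 genes are on the list and 13 have values. The median was -0.96 with a pseudocount of 5, where 6 were lower, and -1.42 over all 13. The ID genes, which encode inhibitors of basic helix-loop-helix factors and are classic targets of BMP signalling, were all lower. Id1 was at 73.5 FPKM on day -3 and 4.53 on day 0, and Id3 at 242 and 29.5. Id2 was at 38.8 and 3.66 FPKM and Id4 at 7.52 and 0.4903. The antagonist gene Grem1 was lower as well, at 150.2 and 29.6 FPKM. Of the signal-carrying SMADs Smad9 was lower at 6.09 and 1.65 FPKM. The receptors and Smad5 were within 2-fold, with Bmpr2 at 17.9 and 16.96 FPKM, Bmpr1a at 34.5 and 46.7, and Smad5 at 28.9 and 32.8.

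Of 22 compared EGF family and MAP kinase feedback genes 10 were lower and 0 higher, with a median of -0.77. Hbegf, a ligand of the EGF receptor, was at 43.3 FPKM on day -3 and 3.14 on day 0, while the receptor gene Egfr was at 8.899 and 10.04. The ERK phosphatases Dusp5 and Dusp4 were at 41.8 and 5.002 FPKM and at 39.1 and 7.14. Phlda1 was at 116 and 22.2 FPKM and Etv4, an ETS factor, at 56.1 and 13.2. Not all feedback genes were lower: Spry2, a Sprouty inhibitor, was at 40.3 and 58.7 FPKM. Of 12 AP-1 factors 5 were lower, with Fosl1 at 76.4 and 3.597 FPKM, Jun at 42.7 and 16.2 and Maff at 35.2 and 6.47, whereas Fos was at 3.01 and 3.59. Ptgs2, the inducible cyclooxygenase, was at 89.6 and 6.04 FPKM and the constitutive enzyme gene Ptgs1 was higher at 15.1 and 36.4. Secreted factors also differed: Pdgfa was at 22.5 and 7.66 FPKM and Csf1, the macrophage growth factor, at 467 and 73.2. Pdgfra, the receptor for PDGF and a marker of fat precursors, was higher at 1.64 and 6.17 FPKM.

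**Figure D3:**
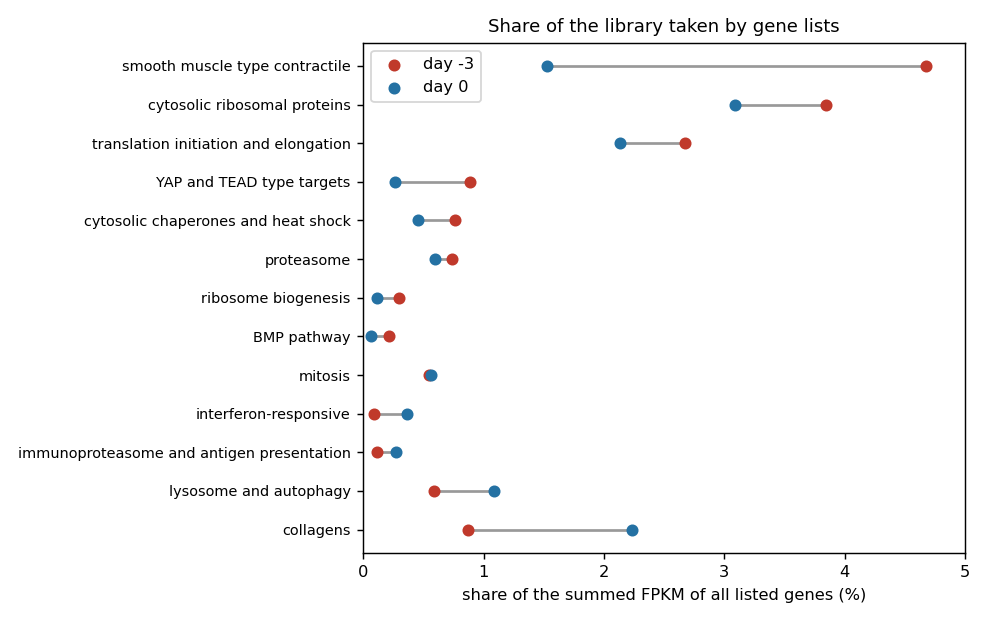
Each pair of points gives the share of the summed FPKM of all listed genes taken by 1 gene list, in per cent, at day -3 (red) and day 0 (blue). The contractile list went from 4.68% to 1.53% and the collagens from 0.870% to 2.24%, while the mitosis list was at 0.547% and 0.565%.

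Collagens, small proteoglycans and elastic fibre genes past 2-fold were mostly higher at day 0, while other matrix lists went both ways or stayed mostly within 2-fold. Collagens took 0.870% of summed FPKM on day -3 and 2.24% at day 0; 10 of 20 compared members were higher and 0 lower, with a median of 1.02. The fibrillar chain Col1a2 was at 519 and 1496 FPKM, and Col1a1, just under 2-fold, at 1282 and 2556, the largest gain in FPKM units of any gene. Col6a1, of the beaded collagen VI, was at 63.7 and 363 FPKM, and Col5a3 at 6.704 and 29.5. The basement membrane chains Col4a1 and Col4a2 lay in the other direction within 2-fold, at 260.3 and 154 FPKM and at 152 and 103. Small proteoglycans and elastic fibre genes had a median of 1.504, with 16 of 26 compared members higher and 2 lower (10 higher and a median of 0.90 with a pseudocount of 5); 29 have values, and 3 of these were under 1 FPKM in both libraries. Ogn, osteoglycin, was at 2.55 and 31.6 FPKM, and Lum, lumican, at 0.18002 and 5.44. Vcan, the large proteoglycan versican, was at 77.8 and 309.7 FPKM and Emilin1, of elastic fibres, at 13.6 and 57.4. The 2 lower members were abundant: Thbs1, thrombospondin, was at 639 and 103 FPKM and Fbln2, a fibulin, at 829 and 331. The summed level of this list was thus lower at day 0, at 0.940% and 0.817% of summed FPKM, against the direction of its median.

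Adhesive glycoproteins and matrix proteases went both ways. Of 16 compared laminin and basement membrane genes 4 were higher and 2 lower. Postn, periostin, was at 335 and 822 FPKM and Nid2, a nidogen, at 23.8 and 76.5. Npnt, an integrin ligand of basement membranes, was lower at 74.1 and 7.46 FPKM, as was Tnc, tenascin C, at 245 and 118. Of 25 compared protease and inhibitor genes 10 were higher and 4 lower. Mmp14, a membrane-bound collagenase, was at 148 and 301 FPKM, Mmp2, which it activates, at 68.1 and 140.3, and Mmp11 at 11.8 and 40.9. The inhibitor Timp1 was at 429 and 62.9 FPKM. In the plasminogen system Plat, tissue plasminogen activator, was higher at 24.5 and 72.1 FPKM, and Plaur, the urokinase receptor, lower at 43.3 and 7.53. Of 21 collagen processing genes 1 was higher and 2 lower: Loxl2 and Loxl3, which cross-link collagen, went opposite ways, at 99.9 and 272 FPKM and at 92.6 and 27.9, and Pcolce2 was at 7.59 and 0.7903.

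Nearly all interferon-responsive genes with values were at least 2-fold higher at day 0. The list has 48 genes, of which 39 have values. All 39 passed the level threshold, 35 were at least 2-fold higher and 0 lower, and the median difference was 2.00. Members under 1 FPKM on day -3, such as Usp18, Sp100 and Zbp1, passed the threshold only through day 0. Such members could not have been counted lower. With a pseudocount of 5, which shrinks the differences of genes with low values, 25 were higher and 0 lower, with a median of 1.19. The transcription factors of the response were among them, with Stat2 at 2.57 FPKM on day -3 and 20.1 on day 0 and Irf9 at 8.703 and 38.7. Sensors of viral RNA were higher, with Ddx58, which encodes RIG-I, at 4.62 and 32.1 FPKM and Ifih1, which encodes MDA5, at 1.598 and 8.59. So were effectors: Ifit1, which binds foreign RNA caps, was at 1.58 and 25.4 FPKM and Bst2, tetherin, which holds budding virus at the membrane, at 24.2 and 86.6. Usp18, a protease that removes ISG15 and restrains the pathway, was at 0.587 and 11.5 FPKM. The 4 members within 2-fold were Trim25 (17.5 and 28.7 FPKM), Ifitm2 (55.9 and 111), Sp100 (0.192 and 1.28) and Zbp1 (0.144 and 1.005), all with larger values at day 0.

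The upstream genes differed less. Of 23 compared interferon genes, receptors and sensors 5 were higher and 1 lower, with a median of 0.28. The type I receptor chains Ifnar1 and Ifnar2 were at 20.5 and 26.3 FPKM and at 28.2 and 31.4. The kinases Jak1 and Jak2 were at 65.8 and 57.6 FPKM and at 17.6 and 13.7. The interferon genes themselves were not analysed here. The higher members were Irf1 (14.1 and 43.4 FPKM), Ikbke, a kinase that activates interferon regulatory factors (2.102 and 8.69), Tlr2 (0.728 and 3.702) and the HIN-200 genes Ifi203 (0.355 and 5.05) and Ifi204 (0.904 and 3.81). Irf5 was lower at 13.1 and 4.13 FPKM.

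The ISRE core (GAAA, any 2 bases, GAAA), searched on both strands with overlapping matches kept, was found in 14 of 34 promoters (41.2%) of compared interferon-responsive genes. It was in 3.44% of all promoters in the table and in 2.94% of those of all compared genes. Genes higher at day 0 held it in 6.199% of their promoters and genes lower in 2.69%. The windows of 5 genes are printed with every match in capitals. They are the members with the largest differences that hold a match before the transcript start. Isg15 is on chromosome 4 (chr4:156200840-156200919, - strand, nearest match 56 bases before the transcript start), Ifit1 on chromosome 19 (chr19:34640769-34640848, + strand, 75 bases before) and Ifit3 on the same chromosome (chr19:34583372-34583451, + strand, 112 bases before). Stat2 is on chromosome 10 (chr10:128270248-128270327, + strand, 212 bases before) and Rsad2, which encodes the antiviral enzyme viperin, on chromosome 12 (chr12:26456528-26456607, - strand, 110 bases before).
Isg15: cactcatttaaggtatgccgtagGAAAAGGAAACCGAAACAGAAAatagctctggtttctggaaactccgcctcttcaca
Ifit1: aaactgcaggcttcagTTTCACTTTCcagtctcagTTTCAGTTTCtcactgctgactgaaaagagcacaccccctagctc
Ifit3: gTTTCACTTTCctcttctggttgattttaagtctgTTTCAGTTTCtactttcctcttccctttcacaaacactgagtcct
Stat2: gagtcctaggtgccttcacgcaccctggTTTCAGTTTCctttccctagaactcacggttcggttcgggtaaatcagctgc
Rsad2: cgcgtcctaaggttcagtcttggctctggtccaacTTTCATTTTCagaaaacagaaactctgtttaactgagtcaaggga
TTTC, 2 bases, TTTC is the core read from the other strand. The Isg15 window holds 3 overlapping matches, those of Ifit1 and Ifit3 2 each, and those of Stat2 and Rsad2 1 each. Isg15, a ubiquitin-like protein, was at 3.92 and 67.6 FPKM, Ifit3 at 0.647 and 13.9, and Rsad2 at 0.114 and 3.69. Oasl2 and Irf7, which were among the most different genes of the list, held no match in their promoter windows, which says only that these letters are not there.

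Genes of antigen presentation and the interferon-induced GTPases were higher as well, by an amount that moved with the pseudocount. Of 8 compared guanylate binding and immunity GTPases 7 were higher and 0 lower, with a median of 2.22; with the 2 members under 1 FPKM in both libraries kept in, the count was 7 of 10. With a pseudocount of 5 there were 3 of 8 higher and the median was 0.88, and with 0.1 the median was 4.14. Members under 1 FPKM on day -3, such as Igtp and Gbp3, could not have been counted lower. Igtp was at 0.457 FPKM on day -3 and 12.2 on day 0, Gbp3 at 0.2301 and 6.01, and Irgm1, within 2-fold, at 29.4 and 55.2. The ISRE core was in 7 of their 8 promoters (87.5%). Of 15 compared immunoproteasome and antigen presentation genes 12 were higher and 0 lower, with a median of 1.41, and with a pseudocount of 5 there were 7 higher, with a median of 0.89. The peptide transporter subunit Tap2 was at 1.14 and 7.82 FPKM and Tapbp, tapasin, at 18.9 and 108. The class I chain H2-K1 was at 11.2 and 40.01 FPKM, and B2m, the shared light chain, at 319 and 522. H2 genes resemble each other closely, so their values are uncertain where reads could be assigned to more than 1 of them.

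Of 14 compared chemokine and cytokine genes 5 were higher and 2 lower, with a median of 0.36, and with a pseudocount of 5 there were 3 higher. The summed level of the list was lower at day 0, at 728 and 486 FPKM, with Csf1 at 467 and 73.2. Cxcl10, a chemokine induced by interferon, was at 7.17 and 54.7 FPKM, Ccl5 at 3.56 and 20.5, and Ccl2 at 32.02 and 80.8. Of 8 compared complement genes 5 were higher and 0 lower, led by the classical pathway proteases C1s (3.21 and 42.6 FPKM) and C1ra (0.975 and 7.76). The core NF-kB genes were level, with Rela at 50.6 and 45.3 FPKM and Nfkb1 at 41.98 and 40.5. Markers of macrophages and other leukocytes stood at a far lower level, and most of those with values were within 2-fold. Of 25 such markers 6 have values, whose sum was 7.30 FPKM on day -3 and 15.6 at day 0, and 2 of the 6 were higher: Lck (1.01 and 4.803 FPKM) and Cd74 (0.519 and 3.21). With a pseudocount of 5 the count of higher markers was 0, with a median of 0.20. Cd68, a defining macrophage marker, was at 3.403 and 3.32 FPKM, and Ptprc, which encodes the pan-leukocyte antigen CD45, was not analysed here. The part of such cells in the result was not tested. In bulk RNA, fewer cells of a type and less RNA per cell cannot be told apart.

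Lysosome and autophagy genes were shifted upwards as a list. Of 35 compared members 10 were higher and 0 lower, with a median of 0.69; 16 were higher when rescaled to a common total. Ctsf, a cathepsin, was at 0.747 FPKM on day -3 and 4.74 on day 0, and Gaa, which breaks down glycogen, at 54.3 and 125. The calcium channel gene Mcoln1 was at 25.2 and 54.6 FPKM. The autophagosome proteins Gabarap and Map1lc3b were at 133 and 306 FPKM and at 17.3 and 41.7, while the initiation genes Becn1 and Atg5 were at 57.6 and 47.9 and at 15.2 and 13.1. The E-box CACGTG, which reads the same on both strands and lies within the element that the lysosomal regulator TFEB binds, was in 11 of 28 promoters (39.3%) of the list. Its share was 7.15% of all promoters and 10.0% of those of all compared genes. It was 7.10% for genes higher at day 0 and 14.5% for genes lower, so the motif did not go with higher genes in general. Of the members with a match Ctsf, Gaa and Mcoln1 were higher and the other 8 within 2-fold, while the windows of the higher members Lamp2, Ctsk, Lipa, Map1lc3b and Gabarap hold no match. The windows of the first 3 are shown with the E-box in capitals. Ctsf lies on chromosome 19 (chr19:4855049-4855128, + strand, match 73 bases before the start), Gaa on chromosome 11 (chr11:119267786-119267865, + strand, 134 bases before) and Mcoln1 on chromosome 8 (chr8:3500437-3500516, + strand, nearest of 2 matches 39 bases before).
Ctsf: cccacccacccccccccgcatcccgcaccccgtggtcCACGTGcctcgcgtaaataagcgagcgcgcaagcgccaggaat
Gaa: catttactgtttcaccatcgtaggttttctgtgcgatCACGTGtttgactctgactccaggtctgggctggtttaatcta
Mcoln1: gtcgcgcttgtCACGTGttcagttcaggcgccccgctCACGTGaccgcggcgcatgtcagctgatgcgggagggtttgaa

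**Figure D4:**
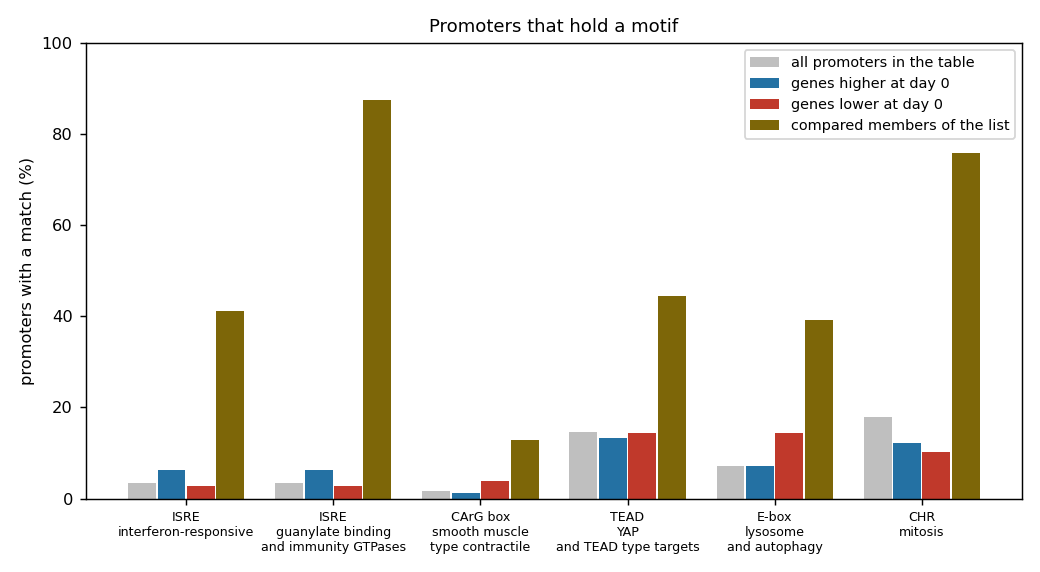
Bars give the percentage of promoters (250 bases before to 50 after the transcript start) that hold a motif on either strand, for all promoters in the RefSeq table (grey), genes at least 2-fold higher (blue) and lower (red) at day 0, and the compared members of 1 list (olive). The ISRE is in 41.2% of interferon-responsive and 87.5% of GTPase promoters beside 3.44% of all, and the mitosis list, whose genes were level, holds the CHR in 75.9% beside 17.9%.

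The promoter search also covered lists that did not differ. The CHR (cell cycle homology region, TTTGAA), which binds the complexes that time mitotic genes, was in 22 of 29 mitosis promoters (75.9%) beside 17.9% of all. The CCAAT box was in 23 of those 29 (79.3%) beside 37.4% of all. The AP-1 motif TGANTCA was in 6.199% of promoters of higher genes and 6.90% of those of lower genes. Its share was 5.02% over promoters of all compared genes and 7.81% over all promoters. Promoters of compared genes had a median GC content of 61.3%, beside 52.7% over all promoters, which bears on motif shares. That of the interferon-responsive genes was 52.8%.

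Metabolic lists had medians under 1 either way, but in some the share past 2-fold was above the 16.8% of all compared genes. Of 28 fatty acid oxidation genes 4 were higher and 0 lower, with a median of 0.61: Acadm, medium-chain acyl-CoA dehydrogenase, was at 10.7 and 32.9 FPKM, and Cpt1a, which moves fatty acids into mitochondria, at 15.5 and 36.6. Of 24 compared cholesterol synthesis genes 4 were higher and 0 lower, with Fdps at 14.3 and 39.3 FPKM. Both counts are near the 11.3% of all compared genes that were higher, though 25 of the 28 and 21 of the 24 had the larger value at day 0. Among 17 compared fatty acid synthesis genes 6 were higher and 1 lower. The desaturases Scd1 and Scd2 were higher, at 41.5 and 108 FPKM and at 126 and 399, while the synthase Fasn was at 175 and 95.7. Glycolysis genes went both ways around a median of 0.01. Hk2, the hexokinase induced by growth factors, was at 23.4 and 5.08 FPKM, Slc2a1, the glucose transporter GLUT1, at 62.2 and 26.98, and Pfkfb3 at 10.7 and 3.09. Eno2, Ldhb and Pdk1, which encode an enolase, a lactate dehydrogenase subunit and an inhibitor of pyruvate entry into mitochondria, were higher, Pdk1 at 10.2 and 32.4 FPKM. Of 48 respiratory chain genes 0 were higher and 1, Cycs, was lower, and its pseudogenes make its value uncertain. Redox genes, with 6 of 25 compared members higher and 2 lower, split between enzymes. The glutathione transferase Gsta4 was at 2.35 and 18.3 FPKM and Gstm2 at 5.67 and 22.7, but thioredoxin reductase Txnrd1 was at 126 and 49.4.

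Developmental signalling genes differed member by member. In the IGF list 5 of 13 compared genes were higher and 0 lower: Igf1 was at 1.73 FPKM on day -3 and 13.4 on day 0, and the binding proteins Igfbp4 and Igfbp6 at 2.05 and 25.4 and at 12.7 and 43.5. The receptor gene Igf1r was at 25.2 and 14.1 FPKM. In the Wnt list 5 of 26 were higher and 1 lower, with the receptor Fzd1 at 12.97 and 82.1 FPKM, the decoy Sfrp2 at 4.02 and 10.999, and the nuclear effector Lef1 lower at 9.12 and 2.77. The adipogenesis inhibitor Wnt10b was at 5.18 and 4.902 FPKM. Of 20 compared Notch and Hedgehog genes 4 were higher and 4 lower, with a median of 0.12. The receptor gene Notch3 was at 3.23 and 22.6 FPKM, with Notch1 and Notch2 within 2-fold at 8.68 and 9.64 and at 17.9 and 24.2. The target gene Hes1 was at 46.6 and 11.3 FPKM, and Hey2 at 1.403 and 0.157. Gas1, a growth arrest protein of the membrane that also binds Hedgehog, was at 12.3 and 143 FPKM. Of 38 compared semaphorin, ephrin and other guidance genes 12 were higher and 6 lower. The ephrin receptors Epha3 and Epha2 went opposite ways, at 0.402 and 9.99 FPKM and at 42.2 and 7.83. Sema5a was at 2.39 and 18.2 FPKM, and Unc5b, a netrin receptor, at 155 and 30.8.

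Of 33 adipocyte markers with values 16 were under 1 FPKM at both times, and of the 17 compared 6 were higher and 0 lower (3 higher with a pseudocount of 5). Fabp4, the fatty acid carrier, was at 37.6 and 106 FPKM and Plin3, a lipid droplet protein, at 18.6 and 55.3, while Adipoq, adiponectin, was at 0.234 and 0.2599. Of 17 compared early adipogenic factors 2 were higher: Zfp467 (1.63 and 11.4 FPKM) and Stat5a (3.73 and 9.28), a share like that of all compared genes. Cebpb and Cebpd, which start the cascade, were at 24.9 and 35.3 FPKM and at 10.3 and 9.53. Pparg, the floxed gene, was at 16.8 and 7.46 FPKM, a difference of -1.08 that was within 2-fold when rescaled to a common total or with a pseudocount of 5. Thra, a thyroid hormone receptor, was higher at 15.8 and 62.6 FPKM. Cebpa was at 1.12 and 1.15 FPKM.

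Of 30 compared preadipocyte and mesenchymal markers 8 were higher and 3 lower. Surface markers of fat precursors were among the higher ones: Cd34 was at 1.22 FPKM on day -3 and 7.69 on day 0, Ly6a, which encodes SCA-1, at 20.8 and 103, beside Pdgfra. The transcription factor Osr2 was at 2.17 and 35.5 FPKM and Hic1, of quiescent mesenchymal progenitors, at 9.63 and 38.96. Cd44, the hyaluronan receptor, was lower at 299 and 63.7 FPKM, as were Snai1 at 49.99 and 15.7 and Foxc2 at 26.8 and 3.78. Prrx1 and Tbx15, factors of mesenchyme, were level at 57.5 and 85.8 FPKM and at 50.6 and 64.99. Of 27 Hox and related homeobox genes 26 were within 2-fold, with Hoxa3 at 3.2997 and 2.13 FPKM. Markers of mesenchyme were measured at both times, and the lists of the cell types named next had values for a smaller part of their members. Genes without values are not to be read as low, so these shares do not show which cells were present. Of 16 endothelial markers 4 have values, Kdr at 1.07 and 1.88 FPKM among them, and of 12 epithelial markers 2, of which Krt19 was at 48.8 and 13.8. Of 28 skeletal muscle markers 8 have values, summing to 22.2 and 15.0 FPKM. Of 15 nerve and Schwann cell markers 6 have values, summing to 49.03 and 118 FPKM, of which Pmp22, a myelin protein gene that fibroblasts also express, was at 29.2 and 95.3 and Uchl1 was lower at 10.1 and 4.43. Of 10 pericyte and smooth muscle markers 5 have values: Mcam was at 64.05 and 10.3 FPKM, Notch3 at 3.23 and 22.6, and Des, desmin, was at 0.289 and 1.15. Their part in the contractile result was not tested.

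The day 2 and day 7 libraries place these levels in the later course. Since the comparison shares its libraries with the later steps, only the levels are given, in the order of days -3, 0, 2 and 7. The 1201 genes higher at day 0 stood at medians of 2.75, 9.99, 7.12 and 9.11 FPKM over the course, and of these 624 had their highest level of the 4 libraries on day 0, 144 on day 2 and 433 on day 7. The 576 genes lower at day 0 had medians of 36.4, 12.4, 12.6 and 11.2 FPKM, and 520 of them were highest at day -3. Interferon-responsive genes were highest at day 0, with medians of 1.55, 20.1, 3.42 and 6.59 FPKM; Xaf1 was at 1.42, 26.5, 1.71 and 7.97. Antigen presentation genes had medians of 4.47, 12.1, 10.9 and 21.2 FPKM, with H2-K1 at 11.2, 40.01, 67.6 and 187. Contractile genes had medians of 324, 131, 44.01 and 37.1 FPKM, ribosome biogenesis genes of 59.7, 16.9, 30.6 and 16.9 FPKM, and collagens of 35.4, 72.6, 250.2 and 93.6 FPKM. The small proteoglycans had their highest median at day 0, with 4.78, 25.7, 12.999 and 6.72 FPKM. Ptn, pleiotrophin, a secreted growth factor, was at 89.97, 1194, 342 and 41.6 FPKM, and Crabp1, which binds retinoic acid, at 55.7, 283, 7.11 and 1.21. Among genes lower at day 0, Id2 was at 38.8, 3.66, 11.01 and 44.4 FPKM, and Cyr61 at 616, 64.9, 59.5 and 106.

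**Figure D5:**
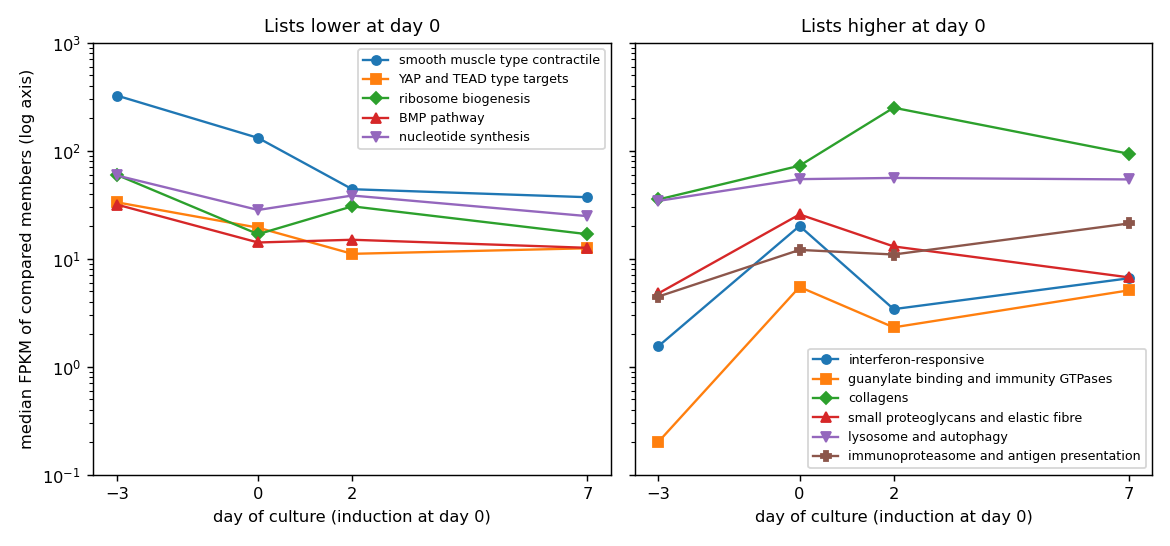
Lines join the median FPKM (log axis) of the compared members of 11 gene lists in the libraries of days -3, 0, 2 and 7, 1 library a day, on the left for lists lower at day 0 and on the right for lists higher. Interferon-responsive genes stand highest at day 0 with 20.1 FPKM and are at 3.42 at day 2, whereas contractile genes go down at each time from 324 FPKM to 37.1.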

How the data were processed

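RNA of cultured brown preadipocytes was sequenced at days -3, 0, 2 and 7, with 1 library a day grouped by sample title. The authors deposited gene-level FPKM by gene symbol for 11144 genes, each above 1 FPKM in at least 1 of the 4 libraries (the smallest maximum was 1.00125), so genes that are missing are not to be read as low. Build mm9 and the programs TopHat2 2.0.10, Cufflinks 1.0.3, CASAVA 1.8.2 and SICER are named per the submitters' processing notes; the role of each was not given in the sources used here. Read depth could not be recovered: of 196 genes below 0.3 FPKM at most 2.04% shared 1 ratio between libraries.

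Differences of log2(FPKM + 1) were computed with Python 3.11.15, pandas 2.3.3 and numpy 2.4.6 and drawn with matplotlib 3.10.9. Genes whose larger value reached 1 FPKM were compared, and a log2 difference of at least 1 was counted. The 71 gene lists, the members and the rules were chosen with earlier results of these data known. Genes named were the 15 with the largest log2 difference each way at 10 FPKM or more, the 20 with the largest FPKM difference each way, the genes at the thresholds, and per list the first 3 members and up to 4 past 2-fold each way. Other genes named, such as Myl9, Stat2, Bst2, Gaa and Myh10, were chosen after their values were seen. Some genes that the rule takes are left out.

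Promoters (250 bases before to 50 after the transcript start) came from RefSeq, build GRCm38.p6, which differs from mm9. Of the 11144 symbols 11078 matched 1 RefSeq symbol, and 8513 compared genes had a promoter. The printed windows end before the transcript start. Counting was tested on simulated data. Alternatives covered the pseudocount, the level threshold, the scaling and the fold rule. The chromatin libraries were not analysed here.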

Additional observations from a re-analysis of the deposited data

How the results depend on the processing

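With a pseudocount of 5 the genes at least 2-fold apart numbered 436 higher and 357 lower in place of 1201 and 576, so that 54.98% were higher, and 3 gene lists had a median of at least 1 either way in place of 10. The 3 were ribosome biogenesis (-1.39), contractile (-1.29) and interferon-responsive genes (1.19). BMP pathway genes (-0.96) and YAP and TEAD type targets (-0.82) fell under it. So did collagens (0.92), complement (0.85), immunoproteasome (0.89), proteoglycan (0.90) and GTPase genes (0.88). That pseudocount also left 5 higher preadipocyte markers in place of 8, 3 higher guidance genes in place of 12, and 1 higher gene each in the Wnt list and among interferon receptors and sensors in place of 5. With a pseudocount of 0.1 the counts were 1714 and 701. A larger value of at least 5 FPKM gave 884 and 532. Keeping all listed genes had to leave 1201 and 576, because a gene under 1 FPKM in both libraries cannot reach a difference of 1. In that setting 8 gene lists had a median of at least 1 either way in place of 10. YAP and TEAD type targets were then at -0.83 and complement genes at 0.38. Rescaling to a common total gave 1611 higher and 380 lower, and rescaling by the median ratio 1178 and 592. With the common total 9 gene lists had a median of at least 1 either way, and YAP and TEAD type targets were at -0.86. A 4-fold rule left 180 higher and 88 lower. The cause of these shifts beyond the rule itself was not tested. No list median past 1 turned its direction under these settings. For a single called gene this was fixed in advance. A pseudocount keeps the sign of a difference, and the rescalings moved differences by less than 1. After them the median of all compared genes was 0.25 or 0.05 in place of 0.06. The direction of single genes was therefore not checked by these settings. No paired analysis was possible because each day had 1 library, and for the same reason no library could be left out. The depth is unknown, so no interval for counting error is given, and 1 culture a side cannot tell the growth state from the spread between cultures.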

Other observations

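Several of the most different genes belong to no list above. Tnfrsf12a, the receptor of the cytokine TWEAK, was at 295 FPKM on day -3 and 26.95 on day 0. Tll1, a protease that processes procollagen and chordin, was at 24.7 and 1.15 FPKM. Among higher genes, Lrrc17, a secreted leucine-rich repeat protein, was at 0.853 and 39.5 FPKM and Spon2, a secreted spondin, at 1.07 and 21.2. H1f0, a linker histone that accumulates in cells that have stopped dividing, was at 162 and 424 FPKM while the mitosis list was level, and it was at 429.998 and 583 FPKM at days 2 and 7. Fth1, the ferritin heavy chain that stores iron, was at 787 and 1456 FPKM, within 2-fold. These genes were taken by the size of their difference, which is a description with no test.

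Some genes past 2-fold the same way also lay beside each other. In the gene order of GRCm38.p6 there were 38 runs of 3 or more neighbouring compared genes, all past 2-fold in 1 direction. With 11.3% of all compared genes higher and 5.43% lower, some runs would arise in any gene order. How many to expect was not computed, so the count does not show that such genes lie together. A run of 5 on chromosome 19 held Lipa, Ifit2, Ifit3, I830012O16Rik and Ifit1, and another of 5 on chromosome 17 held H2-DMa, Tap1, Psmb8, Tap2 and Gpsm3. On chromosome 3 a run of 5 held the glutathione transferases Gstm5, Gstm7, Gstm2, Gstm1 and Gstm4, and a run of 3 held Gbp7, Gbp3 and Gbp2. On chromosome 7 the run Trim12a, Trim12c, Trim30a and Trim30d was higher. On chromosome 17 the lower run Ltbp1, Crim1 and Fez2 joined genes of the TGF-beta and YAP lists. Several of these are families of related neighbouring copies, in which reads can be shared between members, so their values are uncertain; the part of this in the runs was not tested.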
